A study of Mus musculus with 2 samples.

Results

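Messenger RNA of 10 genes of the Hippo pathway was described in mouse heart: the kinase genes Stk3, Lats1 and Lats2, the adaptor gene Sav1, the coactivator genes Yap1 and Wwtr1, and the 4 TEAD transcription factor genes Tead1, Tead2, Tead3 and Tead4. The genes were chosen by symbol, and all 10 were found among the 55450 annotated genes of the tables. The hearts came from male B6CASTF1/J mice, F1 animals from a cross of C57BL/6J with CAST/EiJ, at an age of 14 days. The labels give no treatment, engineered allele or control group. The 2 libraries, of total RNA depleted of ribosomal RNA, each made from 300 ng of RNA with spike-in RNAs added, were labelled as biological replicates. They share 1 donor label that mentions several males, and pooling of animals is not stated, so the spread between them may be partly technical. With 1 group of 2 samples the data give levels and their spread, and no condition can be compared.

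The Hippo pathway is a kinase cascade that limits organ growth. The kinase encoded by Stk3 (MST2) acts with the adaptor encoded by Sav1 to activate the LATS kinases, which phosphorylate the coactivators YAP (Yap1) and TAZ (Wwtr1) so that they are held in the cytoplasm or degraded. Unphosphorylated YAP and TAZ enter the nucleus and bind TEAD factors, which recognise the DNA element GGAATG and activate growth genes such as Ccn1 and Ccn2. In the heart the pathway is known for restraining the division of cardiomyocytes, and TEAD factors are also known for binding the M-CAT elements of muscle genes. RNA levels carry no information on phosphorylation or on where the proteins are.

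Depth was 39334380 and 46391250 expected counts in replicates 1 and 2. Counts and levels are those of the authors' RSEM-style gene tables unless said otherwise, and pairs of values give replicate 1 before replicate 2. All 6 cardiomyocyte markers were detected, with a summed level of 32061 and 30577 TPM (transcript abundance scaled for length and depth), and 2 of 6 skeletal muscle markers were, with a sum of 1678 and 1699 TPM. Nearly all of that sum was Ckm, which cardiomyocytes also express, at 1677 and 1697 TPM; Mylpf was at 1.23 and 1.71 TPM, and Myh2, Myh4, Tnnt3 and Actn3 were below 1 TPM. The libraries stood apart in 2 marker lists. The 6 atrial markers summed to 1624 and 507 TPM, and the 6 thymocyte and T cell markers summed to 0.64 and 42.2 TPM. Summed fibroblast markers were at 624 and 523 TPM, endothelial markers at 312 and 295 TPM, and smooth muscle and pericyte markers at 246 and 223 TPM. In bulk tissue, fewer cells of a type and less RNA per cell cannot be told apart.

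All 10 genes were detected, meaning 1 TPM or more in both libraries, a level that 52.0% of 21938 nuclear protein-coding genes reached. Their median was 9.56 and 9.89 TPM, beside 9.72 and 9.94 TPM over the detected protein-coding genes. The genes were spread widely around that median. Tead1 was the highest at 61.9 ± 1.48 TPM (SD, n = 2) and Tead4 the lowest at 1.92 ± 0.163 TPM (SD, n = 2). Between them, in falling order, lay Wwtr1, Yap1, Lats2, Sav1, Lats1, Tead3, Tead2 and Stk3. The ranges of neighbours in this order did not overlap, except between Tead3 and Tead2 and between Tead2 and Stk3, which could not be separated. Over protein-coding transcripts alone, Tead3 was at 3.63 and 2.89 TPM, below Tead2 at 3.70 and 3.38 TPM. Stk3, at 3.84 and 4.25 TPM over such transcripts, was above both.

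**Figure D1:**
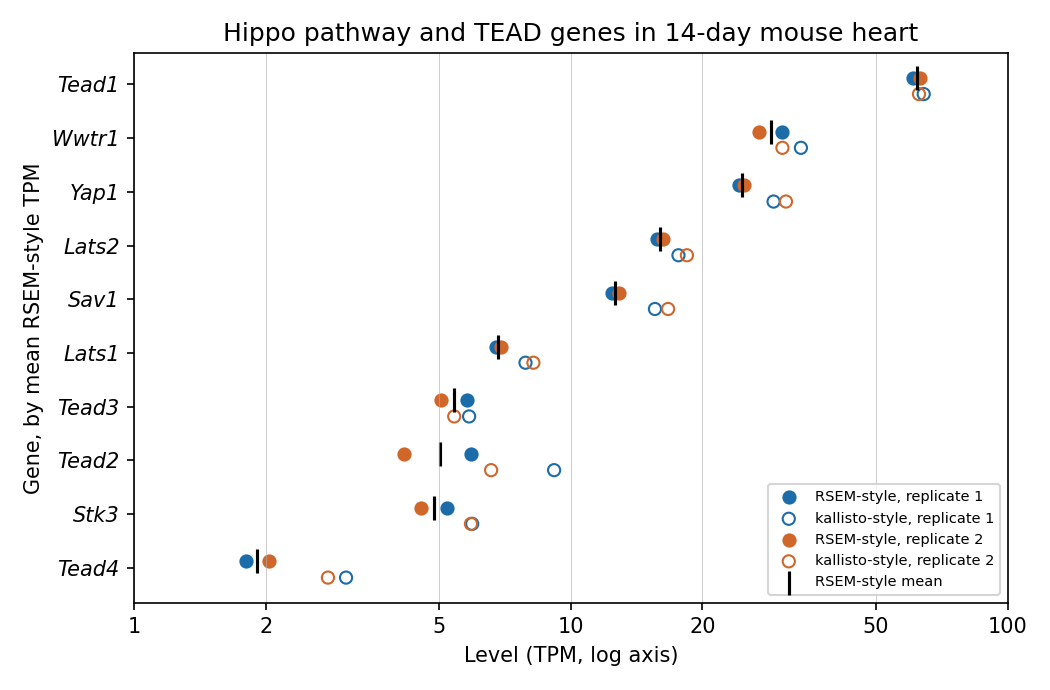
Level of each of the 10 genes in TPM on a log axis, with filled circles for RSEM-style values, open circles for kallisto-style values, blue for replicate 1, orange for replicate 2 and a black bar for the RSEM-style mean. Tead1 lies at 60.87 and 62.96 TPM, well to the right of the other TEAD genes, and Tead2 has the widest gap between the libraries, at 5.89 and 4.14 TPM.

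Among the TEAD genes, Tead1 carried most of the RNA. Tead1 (mm10 chr7:112679318-112906807, plus strand) encodes the TEAD factor known as TEF-1, which binds M-CAT elements. Its level was 60.87 TPM in replicate 1 and 62.96 TPM in replicate 2, on 11418 and 13435 expected counts. It exceeded 91.4% and 91.5% of the detected protein-coding genes. Of the summed level of the 4 TEAD genes, 74.3 and 74.2 TPM, Tead1 made up 81.9% and 84.9%. The share was 78.1% and 81.0% by the kallisto-style tables, a second quantification that the authors deposited.

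The other TEAD genes were all several-fold lower. Tead3 (chr17:28331671-28350817, minus strand) was at 5.77 and 5.04 TPM on 364 and 391 counts. Protein-coding transcripts held 62.9% and 57.3% of its TPM, and the rest lay in transcripts annotated as retaining an intron. Tead2 (chr7:45215753-45233644, plus strand), known as a TEAD gene of the early embryo, was at 5.89 and 4.14 TPM on 241 and 281 counts. Tead4 (chr6:128224288-128300823, minus strand), known for its part in the trophectoderm, was at 1.80 and 2.03 TPM on 146 and 185 counts, and exceeded 7.05% and 8.83% of the detected protein-coding genes. By the kallisto-style tables Tead4 was at 3.05 and 2.78 TPM, still the lowest of the 10. As a log2 ratio within each library, with 0.1 TPM added to both genes, Tead1 stood above Tead4 by 4.95 ± 0.08 (SD, n = 2), above Tead2 by 3.62 ± 0.39 (SD, n = 2) and above Tead3 by 3.50 ± 0.17 (SD, n = 2). These correspond to 30.8-fold, 12.3-fold and 11.3-fold higher levels. All 3 ratios had 1 direction in both libraries, and an exact sign permutation of 2 values cannot give a p below 0.5.

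The place of Tead2 depended on how its reads were assigned to transcripts. By TPM it was lower in replicate 2, with a log2 ratio of -0.51 over replicate 1, against a median absolute log2 ratio of 0.12 over the detected protein-coding genes. By counts scaled for library size the same ratio was -0.06, with a 95% interval for counting error of -0.31 to 0.20. The effective length that the authors' table gives for Tead2 was 1336 bases in replicate 1 and 1850 bases in replicate 2. Annotated transcripts shorter than 1000 bases held 44.4% and 21.8% of its TPM, yet 14.1% and 5.78% of its counts. The full-length coding transcript Tead2-201 held 30.7% of the TPM in replicate 1 and 56.9% in replicate 2. Kallisto-style values put Tead2 higher, at 9.15 and 6.57 TPM, above both Tead3 and Stk3. Of that level Tead2-207, a transcript of 400 bases, held 3.07 and 0.625 TPM, on only 9.94 and 2.35 estimated counts. The coding transcripts Tead2-201, Tead2-202 and Tead2-203 together held 4.04 and 3.90 TPM by the kallisto-style tables. The posterior mean TPM of the RSEM-style table, at 8.33 and 7.03, also put Tead2 above Tead3. At its far end the gene overlaps Cd37 on the opposite strand, which had 44 and 104 counts.

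The Tead1 transcripts differed in the exons that encode the DNA-binding TEA domain. The annotation holds a pair of adjacent coding exons of 63 bases each, at the end of that domain, and 44 of their 63 bases are identical. Tead3 has such a pair too, with 40 of 63 bases identical. They are shown because the reported transcripts differ in which of the pair they hold. All are reference sequence read from the annotated transcripts in the direction of the gene, with capitals at each base that differs between the exons of a pair. The first Tead1 exon lies at chr7:112841888-112841950 and the next at chr7:112842040-112842102. For Tead3, on the minus strand, they lie at chr17:28336511-28336573 and chr17:28336274-28336336.
Tead1, the first exon: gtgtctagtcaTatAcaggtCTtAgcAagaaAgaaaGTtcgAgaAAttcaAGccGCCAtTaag
Tead1, the second exon: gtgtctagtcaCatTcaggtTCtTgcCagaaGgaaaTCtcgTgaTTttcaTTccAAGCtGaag
Tead3, the first exon: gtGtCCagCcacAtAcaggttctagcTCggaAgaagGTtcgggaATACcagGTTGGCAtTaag
Tead3, the second exon: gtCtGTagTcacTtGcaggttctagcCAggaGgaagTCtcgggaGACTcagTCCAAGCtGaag

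Across the genes, the second exons were the closest pair, with 51 of 63 bases identical, and the first exons shared 46. In Tead1, transcripts with both exons and transcripts with the second alone each carried a large share. By the RSEM-style tables, transcripts with both exons (Tead1-201, Tead1-206 and Tead1-208) held 28.4 and 24.1 TPM. That is 50.1% and 43.4% of the TPM of Tead1 transcripts classed as holding both, either or neither exon. Tead1-214, annotated as retaining an intron and at 2.14 and 5.14 TPM, is in none of these classes. It does count as skipping the first exon in the shares drawn in the figure of alternative coding exons. Transcripts with the second exon alone (Tead1-202, Tead1-203, Tead1-204 and Tead1-212) held 26.8 and 28.9 TPM, or 47.3% and 52.1%. The order of these classes was not the same in the 2 libraries. Tead1-207, with the first exon alone, held 1.77% and 2.75%. The kallisto-style tables gave more weight to transcripts with both exons, 69.4% and 65.7%, and 24.1% and 25.4% to those with the second alone. The second exon was in 97.4% and 95.5% of the TPM by the RSEM-style tables and in 93.5% and 91.1% by the kallisto-style ones, and the share with the first one was not settled to better than the gap between the quantifications. Per the annotation no Tead3 transcript holds both exons. Tead3 transcripts with the first exon held 92.3% and 100% by the RSEM-style tables and 79.3% and 77.1% by the kallisto-style ones. So Tead3 transcripts mostly held the first exon of their pair, while most of the Tead1 TPM held the second, alone or together with the first.

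Other alternative exons were found in Tead1 and Tead4. A coding exon of 12 bases follows the TEA-domain pair of Tead1 at chr7:112856053-112856064. It is printed in capitals with 12 bases of the neighbouring exons in lower case, as in Tead1-201.
Tead1, exon of 12 bases: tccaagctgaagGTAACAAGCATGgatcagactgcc

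Transcripts with that exon held 77.4% and 70.4% of the TPM of Tead1 transcripts that include or skip it, and 80.0% and 81.9% by the kallisto-style tables. A Tead1 exon of 174 bases at chr7:112876075-112876248 was skipped only by Tead1-212, which held 9.83 and 7.92 TPM by the RSEM-style tables but 1.17 and 0.916 TPM by the kallisto-style ones. In Tead4, the exon of 129 bases at chr6:128247960-128248088, which follows the TEA domain, was included in 74.4% and 64.0% of the TPM, and in 69.0% and 56.7% by the kallisto-style tables. The Tead4 shares rest on the 146 and 185 counts of the whole gene.

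**Figure D2:**
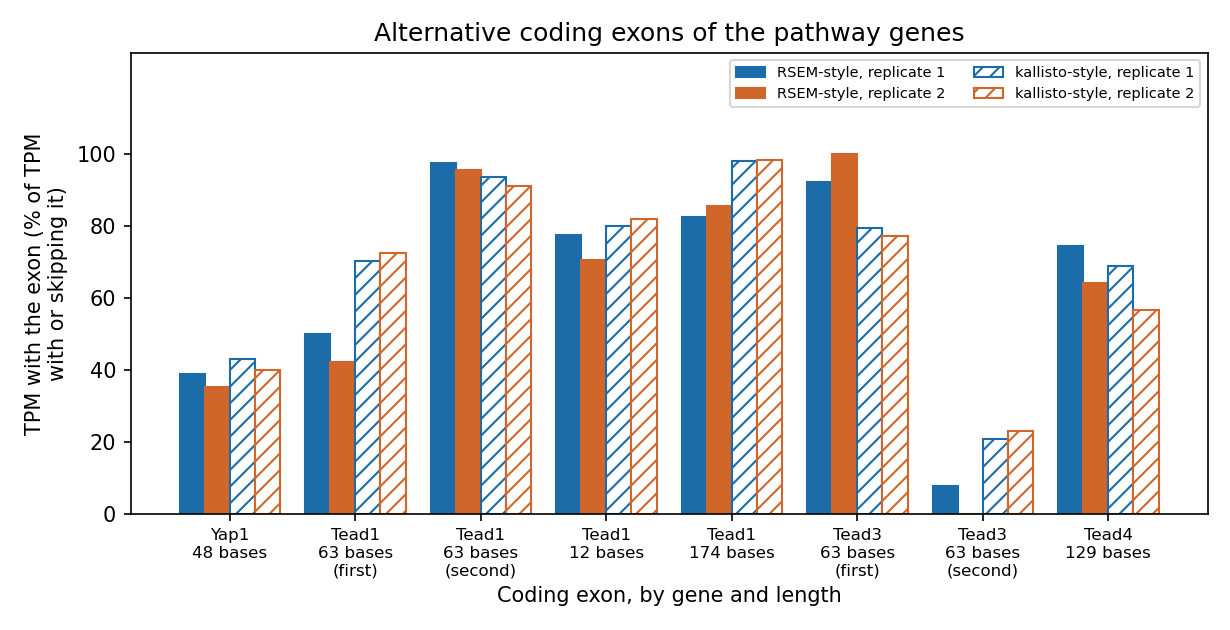
Share of TPM in transcripts that hold each alternative coding exon, in percent of the TPM in transcripts that hold or skip it; solid bars are RSEM-style and hatched bars kallisto-style, blue for replicate 1 and orange for replicate 2. The first Tead1 exon of 63 bases shows the widest gap between the quantifications for Tead1, 49.96% and 42.2% against 70.3% and 72.5%, while the Yap1 exon stays between 35.3% and 43.1%.

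The coactivator genes were expressed at like levels. Wwtr1 (chr3:57455649-57575910, minus strand), which encodes TAZ, was at 30.47 TPM in replicate 1 and 26.91 TPM in replicate 2, on 4288 and 4535 counts. Yap1 (chr9:7931999-8004596, minus strand) was at 24.25 and 24.97 TPM, on 2857 and 3597 counts. The RSEM-style ranges did not overlap, with Wwtr1 higher in both libraries. The log2 ratio of Yap1 over Wwtr1 was -0.33 and -0.11, a mean of -0.22 ± 0.16 (SD, n = 2), so that Wwtr1 stood 1.16-fold above Yap1. By the kallisto-style tables the ranges overlapped, and the ratio was -0.21 and 0.03. Together the coactivators summed to 54.7 and 51.9 TPM, and the TEAD genes to 1.36 and 1.43 times that level.

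Yap1 RNA was divided between transcripts with and without 1 coding exon. The main transcripts Yap1-202 (57.22% and 62.98% of the gene's TPM) and Yap1-201 (34.6% and 30.9%) differ at an exon of 48 bases at chr9:7950492-7950539, which adds a stretch to the part of YAP that activates transcription. It is shown in capitals between 12 bases of each neighbouring exon, as in Yap1-201, the transcript that includes it.
Yap1, exon of 48 bases: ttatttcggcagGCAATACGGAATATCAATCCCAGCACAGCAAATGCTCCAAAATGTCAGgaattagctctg

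Transcripts with this exon held 8.80 and 8.57 TPM and those without it 13.9 and 15.7 TPM, so that 38.8% and 35.3% of the spanning TPM included it. The kallisto-style shares were 43.1% and 39.9%. In both libraries and by both quantifications the form without the exon was the more abundant. Wwtr1, by contrast, was carried almost wholly by 1 of its 2 annotated transcripts, Wwtr1-201, with 99.7% and 99.4% of its TPM.

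Of the LATS kinases, which phosphorylate YAP and TAZ, Lats2 was the more abundant by level. Lats2 (chr14:57689662-57758388, minus strand) was at 15.74 and 16.21 TPM on 1950 and 2608 counts. Lats1 (chr10:7681214-7716460, plus strand) was at 6.72 and 6.92 TPM on 1349 and 1638 counts. Lats2 made up 70.1% of their summed TPM in each library and 69.1% and 69.2% by the kallisto-style tables. The log2 ratio of Lats1 over Lats2 was -1.22 in both libraries, which puts Lats2 2.32-fold higher.

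Stk3 and Sav1 encode the upstream kinase and its adaptor. Sav1 (chr12:69965012-69987002, minus strand) was at 12.39 and 12.86 TPM on 896 and 1108 counts, with 90.0% and 90.1% of its TPM in its only annotated coding transcript. Stk3 (chr15:34875496-35178921, minus strand) was at 5.19 and 4.53 TPM on 362 and 447 counts. Its paralog Stk4, which encodes MST1 and is no member of the 10, was at 6.76 and 8.38 TPM, so Stk3 made up 43.4% and 35.1% of the pair, and 39.8% and 40.3% by the kallisto-style tables. The TPM of Stk3 was lower in replicate 2 by a log2 ratio of -0.20, while its counts gave 0.02. By the kallisto-style tables its TPM was 5.94 and 5.90. Stk3-204, a transcript of 773 bases annotated as a target of nonsense-mediated decay, held 25.1% of the TPM in replicate 1 and 4.69% in replicate 2. Its kallisto-style shares were 25.8% and 14.8%. The effective length of Stk3 in the RSEM-style tables was 2280 and 2692 bases.

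The libraries were next compared on expected counts with an exact binomial test on both sides, with library sizes scaled by the trimmed mean of M values (TMM), over 16606 genes with Benjamini-Hochberg adjustment. A gene was called at an adjusted p of 0.05 or less and a 2-fold ratio. The test compares these 2 libraries and no conditions. None of the 10 genes was called, while 3.23% of all genes tested were, 2.49% as higher and 0.747% as lower in replicate 2. At the same adjusted p with no limit on the ratio, 2 of the 10 passed, and 22% of all genes tested did. At an unadjusted p it was 3 of the 10 and 31.5% of all genes, so the count among the 10 was near the background. With an edgeR exact test that assumes a coefficient of variation of 0.1 between replicates, none of the 10 passed.

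Wwtr1 was lower in replicate 2, with a log2 count ratio of -0.20 (95% interval -0.26 to -0.14, adjusted p = 2.5e-09 by the exact binomial test). It also passed with the kallisto-style counts. Beside it, 5 of 6 fibroblast markers, 6 of 6 smooth muscle and pericyte markers, 4 of 6 endothelial markers, 4 of 6 cardiomyocyte markers and 6 of 6 atrial markers were lower in replicate 2 at an adjusted p of 0.05 or less, against 11.1% of all genes tested. The median log2 ratio of the cardiomyocyte list was -0.07, and 1 of its 6 markers passed as higher. The macrophage and epicardial lists went otherwise. Of 6 macrophage markers 3 were higher and 1 lower, and of 6 epicardial markers 2 were higher and 2 lower. Of 5 erythroid markers 3 were lower and 2 higher. The part of any marker list in the Wwtr1 ratio was not tested.

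Lats2 was higher in replicate 2, with a log2 count ratio of 0.14 (95% interval 0.05 to 0.23, adjusted p = 0.00794 by the exact binomial test). The gene Gm49361 overlaps Lats2 on the same strand, and it was given 126 counts in replicate 1 and 7.12 in replicate 2. When the counts of both genes were added, a step chosen once the values had been seen, the log2 ratio was 0.05 (95% interval -0.03 to 0.14) and the exact binomial test gave an adjusted p of 0.42. With kallisto-style counts Lats2 did not pass, and Tead1 did, as lower in replicate 2. By the RSEM-style counts Tead1 had a ratio of -0.04 (95% interval -0.08 to -0.01). The intervals of the other 7 genes included 0, the widest being that of Tead4, from -0.26 to 0.39.

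**Figure D3:**
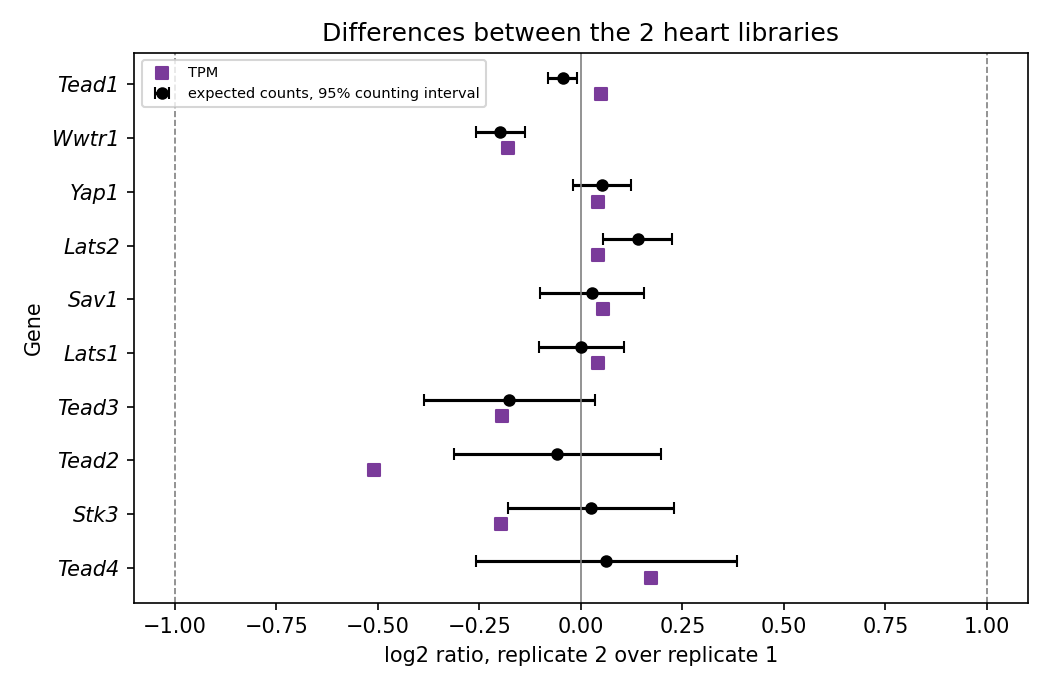
Log2 ratio of replicate 2 over replicate 1 for each of the 10 genes; black circles are expected counts scaled for library size, with bars for the 95% interval of counting error, purple squares are TPM, and dashed lines mark a 2-fold ratio. No gene reaches 2-fold, and for Tead2 the TPM ratio of -0.51 lies far from the count ratio of -0.06.

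The rest of the pathway was present as well. Of 99 further genes in 8 lists, 92 were detected and 96 could be tested, of which 2 were called (2.08%, against 3.23% of all genes tested). At any ratio 36 of the 96 passed (37.5%, against 22% of all genes tested), and 2 did with the edgeR exact test at a coefficient of variation of 0.1. The exact binomial test passes smaller ratios in genes with more counts, so the 2 shares are not on an equal footing. With at least 100 counts in each library, 26.9% of all genes tested passed, and 35 of these pathway genes did. Fewer than the 96 met that filter, and as their number is not given here, the 35 cannot be read as a share. The lists, like the 10 genes, were drawn up with earlier results of these data known.

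The 5 other genes of the core kinase module were all detected. Stk38 and Mob1b led them, at 16.5 and 19.5 TPM and at 17.9 and 17.1 TPM, followed by Mob1a at 10.59 and 12.02 TPM and Stk4. Stk38 encodes a kinase of the same family as LATS, and the MOB1 proteins are cofactors that help activate LATS. None was called. At any ratio 4 of 5 passed, Stk38, Mob1a and Stk4 as higher and Mob1b as lower in replicate 2. Of all genes tested 22% passed, and 26.9% of those with at least 100 counts in each library.

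Kinases that can act on LATS in place of the MST kinases were higher than Stk3 by TPM, apart from Taok3 and Map4k1. Map4k4 led that list at 73.3 and 71.8 TPM, followed by Stk25 at 45.2 and 40.6 TPM, Taok2 at 25.2 in both libraries and Taok1 at 24.8 and 24.3 TPM. The list was detected in 10 of 11 members. Map4k1, known from blood cells, was the exception, at 0.39 and 0.98 TPM. It was called as higher in replicate 2 with a log2 count ratio of 1.25 (adjusted p = 0.00055 by the exact binomial test).

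Genes for junction proteins, scaffolds and polarity proteins upstream of LATS were detected in 25 of 27 cases. Ctnna1, which encodes the cadherin-binding protein alpha-catenin, was at 236 and 233 TPM, and Cdh2, the cadherin of the cardiomyocyte junction, at 99.6 and 103 TPM. Tjp1 was at 54.8 and 51.7 TPM and Nf2, which encodes the LATS activator Merlin, at 36.0 and 34.5 TPM. Wwc1, which encodes the scaffold KIBRA, was below threshold at 0.43 and 0.40 TPM, while its paralog Wwc2, named here after its values were seen, was at 14.2 and 13.6 TPM. Rassf5, known from lymphocytes, was at 0.90 and 2.09 TPM and was called as higher in replicate 2, with a log2 count ratio of 1.23 (adjusted p = 7.8e-10 by the exact binomial test).

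Map4k1 and Rassf5 were the genes called outside the 10. Beside them, all 5 thymocyte and T cell markers that could be tested were also called as higher in replicate 2, Rag1 at 0.02 and 11.96 TPM among them. The part of those cells in the 2 calls was not tested.

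The genes of the STRIPAK phosphatase complex, which acts against the MST kinases, were detected in 12 of 12 cases. Slmap, which encodes its subunit that binds the MST kinases, led at 114 and 116 TPM, then Ppp2r1a at 97.5 and 88.1 TPM, Sike1 at 38.9 and 37.3 TPM and Strn3 at 36.2 and 38.5 TPM. None passed between the libraries at any ratio by the exact binomial test, beside 22% of all genes tested, and 3 of 12 did at an unadjusted p, beside 31.5%. All 7 genes for the degradation of YAP and TAZ were detected, led by the casein kinase genes Csnk1d, at 31.0 and 30.3 TPM, and Csnk1e, at 27.9 and 27.6 TPM, then Fbxw11, at 23.1 and 22.7 TPM, and Fbxw7, at 18.5 and 18.8 TPM.

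Cofactors of TEAD were present except for 2 of the vestigial-like genes. Vgll4, whose product competes with YAP for TEAD, was at 11.4 and 11.6 TPM, and Vgll3 was at 1.90 and 1.58 TPM. Vgll1 was at 0 and 0.01 TPM and Vgll2, known from skeletal muscle, at 0 and 0.03 TPM. Vgll4 thus made up 85.7% and 87.8% of the summed TPM of the 4 vestigial-like genes. Vgll4 and Vgll3 are named after their values were seen. Among the other cofactors, Smarca4 was at 18.7 and 21.2 TPM, Arid1a at 19.20 and 20.02 TPM and Ncoa2 at 16.4 and 18.3 TPM. Smarca4 and Arid1a encode subunits of a chromatin remodelling complex, and Ncoa2 a nuclear receptor coactivator.

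**Figure D4:**
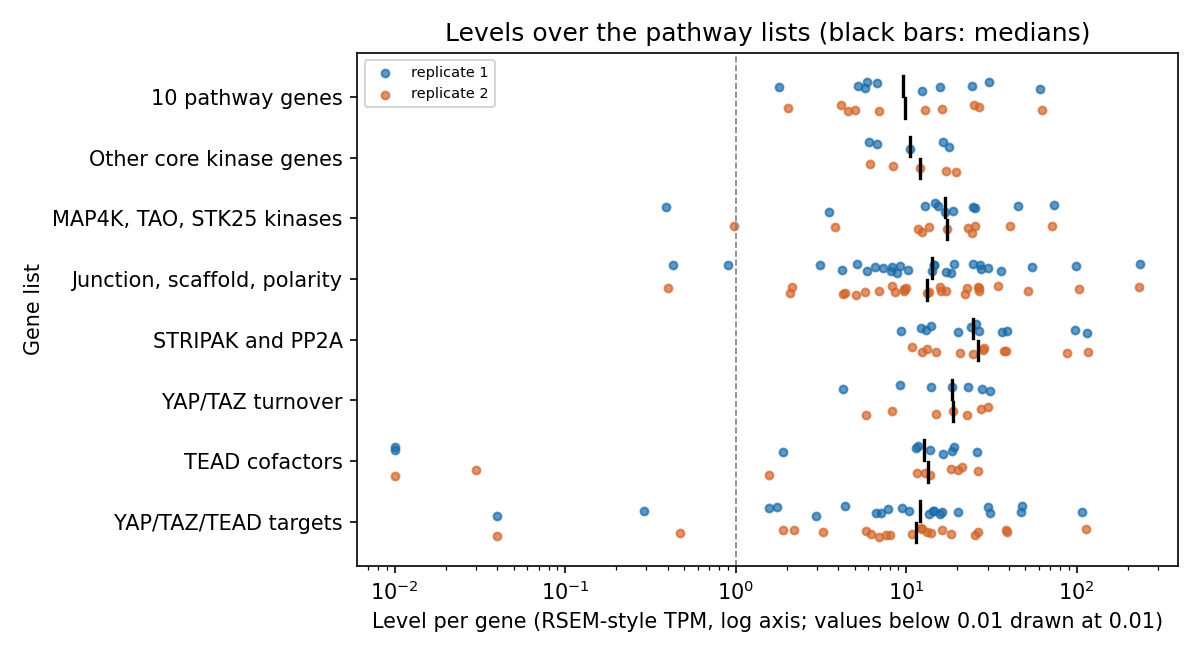
RSEM-style TPM of each gene in 8 lists on a log axis, blue for replicate 1 and orange for replicate 2, with black bars at the list medians and a dashed line at 1 TPM. The 10 genes have medians of 9.56 and 9.89 TPM, all 12 STRIPAK and PP2A genes lie above 1 TPM, and the genes far to the left include Vgll1, Vgll2 and Foxf2.

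Genes reported as targets of YAP, TAZ and TEAD were detected in 20 of 22 cases. The list includes Lats2, one of the 10, and Amotl2 and Ptpn14, which also stand in the upstream list. Ankrd1, which encodes a stress-responsive cardiac ankyrin repeat protein, was the highest at 107 and 113 TPM. Ccdc80 was at 47.8 and 39.3 TPM, the receptor gene Axl at 46.9 and 38.7 TPM and Amotl2, which encodes a YAP-binding scaffold, at 30.01 and 26.49 TPM. Ccn2 and Ccn1, the matricellular genes most used as readouts, were at 31.0 and 25.4 TPM and at 14.3 and 12.2 TPM, and are named for that use. Fjx1 was at 0.29 and 0.47 TPM, and Foxf2 at 0.04 TPM in both libraries.

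None of the targets was called between the libraries by the exact binomial test, beside 3.23% of all genes tested, and 13 of 21 passed at an unadjusted p, beside 31.5%. At any ratio, 9 of the 21 tested were lower in replicate 2 and 1 was higher, against 11.1% lower and 10.9% higher among all genes tested. The 1 higher was Lats2, one of the 10, whose dependence on the overlapping Gm49361 is given above. With kallisto-style counts 10 were lower and 0 higher. The median log2 count ratio of the list was -0.08, beside 0.00 over all genes tested. Ccn2 had a log2 ratio of -0.36 (adjusted p = 8.2e-14) and Ccn1 of -0.25 (adjusted p = 0.0029) by the exact binomial test, whereas Ankrd1 had 0.05 (adjusted p = 0.15). With total counts in place of TMM the split was 6 lower and 3 higher. With the edgeR exact test at a coefficient of variation of 0.1, none of the targets passed. The fibroblast, smooth muscle and pericyte, endothelial, cardiomyocyte and atrial marker lists also had most members lower in replicate 2. Of the 5 erythroid markers tested 3 were lower and 2 higher. The macrophage, epicardial and thymocyte lists did not have most members lower, and the part of any list was not tested.

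Muscle genes reported as TEAD targets through M-CAT elements formed the other target list, and all 8 listed were detected. The highest were the contractile genes Myh6 at 10741 and 9520 TPM, Actc1 at 7150 and 7351 TPM and Tnnt2 at 3486 and 3260 TPM, then the creatine kinase gene Ckm at 1677 and 1697 TPM. Of the 8, 3 passed as higher and 3 as lower in replicate 2 at any ratio, beside 10.9% and 11.1% of all genes tested, and none was called, beside 3.23%. Myh6, Actc1 and Tnnt2 are also cardiomyocyte markers.

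The TEAD element was looked for in promoter sequence. Windows of 300 bases, from 250 bases before to 50 after each start site, were taken from RefSeq on GRCm38.p6 and searched for GGAATG and, for the other strand, CATTCC. The letters occurred in 14.7% of 32851 windows and, taking any window of a gene, in 16.6% of 27025 genes. Of the 10 genes, 7 were in the table, and 5 of them (Yap1, Wwtr1, Tead3, Lats2 and Sav1) held a match. Tead1, Tead4 and Stk3 were not in it. Of the 22 target genes 15 were in the table and 7 held a match. Of the 8 muscle genes 5 did, all but Actc1, Ckm and Adra1b. The match of Wwtr1 starts 136 bases before the start site. Its upstream sequence is shown because it lies outside every annotated exon, from chr3:57575911-57576160 on the minus strand, with the match in capitals.
Wwtr1, upstream: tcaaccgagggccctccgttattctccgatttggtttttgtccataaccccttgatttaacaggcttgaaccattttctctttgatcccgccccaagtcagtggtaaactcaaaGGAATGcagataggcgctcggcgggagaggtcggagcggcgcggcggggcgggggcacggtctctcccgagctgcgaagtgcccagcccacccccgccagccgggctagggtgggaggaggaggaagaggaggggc

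A match is a description of letters and no measure of binding, which these data do not hold.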

How the data were processed

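Total RNA of heart was sequenced in 2 stranded libraries after depletion of ribosomal RNA. Per the file headers, the authors deposited for each library RSEM-style gene and transcript tables with TPM, a posterior mean of it, expected counts and each transcript's percent of its gene, and a kallisto-style transcript table with estimated counts and TPM. Per the authors' readme the genome was mm10 with annotation M21; versions of the tools were not stated in these sources. The tables' 96 spike-ins took 0.517% and 0.531% of counts.

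RSEM-style gene values were the main values, and kallisto-style values were summed per gene. Errors are SDs over the 2 libraries, and intervals cover counting error only. Expected counts were rounded, and genes with 10 or more counts in each library or 20 in total were tested (two-sided exact binomial test, TMM from edgeR 4.0.16, Benjamini-Hochberg over all genes, 0.5 counts added in log2 ratios). edgeR's quasi-likelihood test has no residual degrees of freedom here. The test was checked only on simulated counts with counting error and no spread between replicates, so that check cannot speak for data with such a spread. DESeq2 1.42.0 gave alternative size factors. An exon's share is the TPM of annotated transcripts holding it over that of transcripts holding or skipping it, so it depends on the annotation and on how reads were assigned. Exon sequences come from GENCODE M21 transcripts and promoters from RefSeq.

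Named were the 10 genes, of each list the 4 with the highest mean TPM and those under 1 TPM in both libraries, and every list gene called; exceptions are stated, and 1 gene that the rule names is not reported here. The members and lists were chosen with earlier results of these data known.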

Additional observations from a re-analysis of the deposited data

How the results depend on the processing

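All 10 genes were detected by the kallisto-style tables, and 9 at 2 TPM. That all 10 reached 0.5 TPM follows from their detection at 1 TPM. No paired analysis was possible because both libraries belong to the same group. The calls between the libraries depended on the filter and the assumed spread. Against 413 higher and 124 lower genes in replicate 2, with at least 100 counts in each library 33 were higher and 18 lower. By edgeR with an assumed coefficient of 0.1 there were 315 higher and 76 lower genes, and at 0.2 it gave 194 higher and 36 lower. Either edgeR setting left 0 of the 10 genes and 0 target genes lower at any ratio. Of the other pathway genes, 0 were called at a coefficient of variation of 0.2. With at least 100 counts 0 were called as well, because that filter removed Map4k1 and Rassf5, at 26 and 74 counts in replicate 1.

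Mean ratios kept their direction, but Yap1 over Wwtr1 by kallisto-style values was -0.21 in replicate 1 and 0.03 in replicate 2. The log2 ratio of Tead1 over Tead2 was 3.02 by the kallisto-style tables and 5.57 by counts not divided by length. Tead1 over Tead3 was 3.30 with 1 TPM added, 4.08 over coding transcripts and 5.04 by counts. Tead1 over Tead4 was 4.43 with 1 TPM added, 4.399 by kallisto-style values, 4.81 over coding transcripts and 6.23 by counts. Yap1 over Wwtr1 was -0.46 and Stk3 over Stk4 -1.31 by counts. Lats1 over Lats2 was -1.23 and -1.12 with 0.01 and 1 TPM added, -1.16 by kallisto-style values, -1.12 over coding transcripts and -0.60 by counts. Counts not divided by length favour long transcripts by construction.

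By the kallisto-style tables the mean exon shares were 41.5% for the Yap1 exon of 48 bases, 71.4% and 92.3% for the Tead1 pair, 81.0% and 98.1% for its exons of 12 and 174 bases, and 78.2% and 21.8% for the Tead3 pair. The cause was not tested. Tead4, at 146 and 185 counts, and Tead2, at 241 and 281, set the lower limit of precision.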
